A study of Mus musculus with 38 samples.

Results

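Dendritic cells (DC) that had reached the skin-draining lymph node were set against DC still in the dermis, both taken 3 days after the contact sensitiser 2,4-dinitrofluorobenzene (DNFB) was applied. The comparison uses 6 of the 38 arrays of the series, 3 of node migratory DC after DNFB and 3 of dermal DC after DNFB, chosen by their titles alone. Node migratory DC were live CD11b+ cells of the cutaneous lymph nodes gated on CD11c and on high MHC class II staining, without CD24, Ly6C or CD64. Dermal DC were live CD11b+ cells of ear skin gated on MHC class II, also without CD24, Ly6C or CD64, and with no CD11c gate in the labels. The same populations from untreated mice, with 3 arrays of node migratory DC and 3 of dermal DC, give the comparison at steady state. All mice were wild-type female C57BL/6 animals aged 6 weeks, and treated mice received 10 µl of 0.5% DNFB in acetone and olive oil. Each array holds RNA of 5000 to 10000 sorted cells from a pool of mice, amplified from 5 to 20 ng. Pools were independent within a group, but node and dermal arrays carry common source numbers, so shared mice between tissues are not excluded.

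DC of the skin sample antigen through endocytic receptors and sense microbes and tissue damage through pattern recognition receptors. On maturation they are known to lower uptake, raise costimulators and display peptide on MHC molecules, and to follow the chemokine receptor CCR7 into lymphatic vessels and on to the T cell area of the node. DNFB binds to skin proteins and, through this journey of DC, primes the T cells that later cause contact hypersensitivity.

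Values are log2 intensities, and a difference is node minus dermal on that scale. Arrays of the same group correlated at 0.979 to 0.988 in node DC and 0.986 to 0.989 in dermal DC, and arrays of different groups at 0.908 to 0.925. No detection calls come with the values. A level under 4.02, the 40th percentile of all values in the series, is called low signal here, and the fold of a gene with such a level on its lower side has no exact size. Tissue, gate and digestion moved together with the group, since skin was digested with dispase and collagenase 4 and nodes with collagenase 2. Their parts cannot be told apart.

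After DNFB, 1683 genes were higher and 1803 lower in node DC at an adjusted p under 0.05 (limma, Benjamini-Hochberg over 19937 genes), which is 8.44% and 9.04% of the genes tested and 17.5% in all. Of these, 950 rises and 1183 falls were at least 2-fold. The median difference over all genes was 0.04. The 3 node arrays all lay above the 3 dermal arrays for 3339 genes, or 16.7% of those tested, and all below them for 3150, or 15.8%.

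**Figure D1:**
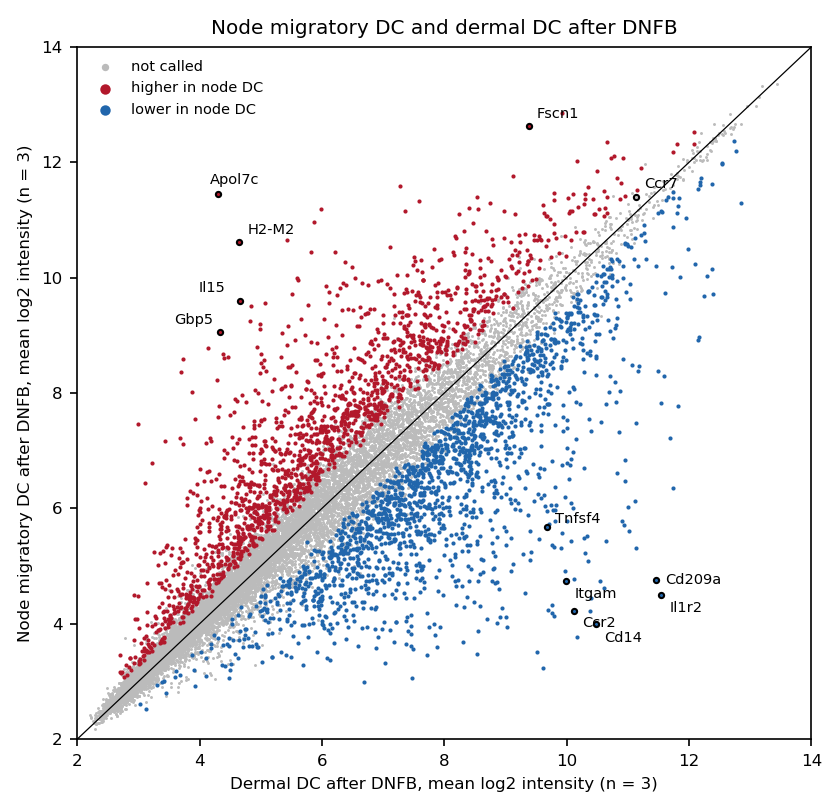
Mean log2 intensity of each gene in node migratory DC (vertical axis) and dermal DC (horizontal axis) after DNFB, n = 3 arrays each, with the line of equal levels. Red points are the 1683 genes called higher and blue points the 1803 called lower in node DC, and Ccr7 lies close to the line while Apol7c and Il1r2 lie farthest from it.

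The steepest rise was that of Apol7c, an apolipoprotein L family gene. It had 11.36, 11.40 and 11.59 in node DC, against 4.97, 4.74 and 3.19 in dermal DC, a 142-fold difference (7.15, SE 0.33, adjusted p = 5.3e-16). The MHC class Ib gene H2-M2 came next, with 10.62, 10.60 and 10.63 in node DC and 4.85, 4.56 and 4.54 in dermal DC (62.6-fold). The groups of both genes stood far apart, with bright node arrays. Array medians lay between 4.39 and 4.65 in the series, and the third dermal array of Apol7c was below them and under the low signal level. The difference of Apol7c was 6.59 without that array. Clu, the gene of the secreted chaperone clusterin (37.5-fold), and Anxa3, of a calcium-dependent membrane-binding annexin (36.7-fold), followed. The other large rises were Nudt17, a Nudix hydrolase gene (34.2-fold), Il15 (30.7-fold), the transporter gene Slco5a1 (29.0-fold, low signal in dermal DC), and Gbp5, of an interferon-inducible GTPase (26.4-fold). Rab30, a small GTPase gene of the Golgi, rose 25.5-fold with low signal in dermal DC. Strip2 (4.67), Arhgap28 (4.63), 2610528A11Rik (4.62), the semaphorin gene Sema6d (4.49), Khdc1a (4.47, low signal in dermal DC) and the adaptor gene Stap2 (4.42) completed the 15 largest.

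The steepest fall was that of Il1r2, the decoy receptor of interleukin 1. It had 4.69, 4.58 and 4.21 in node DC, against 11.45, 11.55 and 11.63 in dermal DC, 132-fold lower (-7.05, SE 0.24, adjusted p = 1.2e-18). Cd209a, a DC-SIGN homologue, had 4.90, 4.80 and 4.58 in node DC and 11.46, 11.38 and 11.56 in dermal DC (105-fold lower). Node arrays of both genes were low and dermal arrays bright, with no overlap. Lectin and receptor genes made up much of the rest of the 15 largest falls: Cd14, the lipopolysaccharide co-receptor (-6.48), Clec10a (-6.38), Mgl2 (64.2-fold), Cd209d (-5.83), the mannose receptor gene Mrc1 (-5.65), Clec4n, which encodes Dectin-2 (-5.58), and Ccr2 (-5.90). The others were Ifitm6 (-6.40), the metalloproteinase inhibitor gene Timp1 (-6.16), I730030J21Rik (63.9-fold), the placental growth factor gene Pgf (-5.95), the nuclear receptor gene Nr4a1 (-5.81) and Ms4a6d (-5.45). Node levels of Cd14, Clec10a, Ifitm6 and I730030J21Rik were low signal.

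Genes of lists with 5 or fewer calls in a direction are named below whichever rule chose them, some of them after their values were seen. The gates read surface protein while the arrays read RNA, and the labels give no staining values to compare. RNA levels of the sort marker genes therefore do not test the sort, and not all of them followed the gates. Itgam encodes CD11b, on which both populations were gated, yet it had 4.90, 4.25 and 5.07 in node DC, against 9.88, 9.78 and 10.33 in dermal DC (38.3-fold lower, -5.26, SE 0.22, adjusted p = 6.2e-17). The node arrays lay around the median of an array and the dermal arrays far above it, and the difference at steady state was -4.89. CD64+ cells sorted from the same nodes after DNFB had 8.65 ± 0.60 (SD, n = 3). Itgb2, whose product pairs with CD11b, was 9.29-fold lower in node DC. Itgax, which encodes CD11c, had 7.26, 7.02 and 7.63 in node DC and 8.84, 8.52 and 9.07 in dermal DC and was thus lower in the population gated on it (-1.51, adjusted p = 8.3e-07). Cd24a encodes CD24, and both gates excluded CD24+ cells. It had 9.38, 9.54 and 9.68 in node DC and 9.95, 9.52 and 9.98 in dermal DC (adjusted p = 0.82), so that its RNA was plain in both populations. Fcgr1, which encodes CD64, was 11.2-fold lower in node DC although both gates excluded CD64, with 4.90, 4.29 and 4.30 in node DC and 7.95, 7.71 and 8.26 in dermal DC. Zbtb46 and Flt3, defining DC genes chosen here after their values were seen, were present in both populations. They do not stand for the conventional DC core list, which gave 5 rises and 11 falls among 20, with a median of -0.75. Zbtb46, a DC transcription factor gene, had 6.92, 6.69 and 6.67 in node DC and 6.30, 6.27 and 6.60 in dermal DC (adjusted p = 0.18). Flt3, the receptor gene of a DC growth factor, had 10.54, 10.42 and 10.49 in node DC and 9.39, 9.26 and 9.39 in dermal DC (1.14, adjusted p = 0.015).

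Genes of DC maturation and migration were the list with the highest share of rises. Lists and members were chosen with earlier results of these data known, so the share may partly reflect that choice. Of 38 measured genes 29 rose, 1 fell and 8 did not pass, with a median difference of 1.57, against 8.44% and 9.04% of all genes and a median of 0.04. Fscn1, which encodes the actin-bundling protein fascin of DC dendrites, had 12.63, 12.56 and 12.68 in node DC and 9.56, 10.25 and 8.32 in dermal DC (9.49-fold, SE of the log2 difference 0.42). The node arrays lay close together, while the dermal arrays were spread widely. Il15, a cytokine gene for NK and memory T cells, had 9.63, 9.33 and 9.85 in node DC, against 4.60, 4.52 and 4.87 in dermal DC, and its presenting receptor gene Il15ra had 9.75, 9.82 and 10.01 in node DC, against 6.10, 6.27 and 5.82 in dermal DC. Cytokine and receptor were thus both high in all node arrays. Cd200, an inhibitory ligand gene, rose 8.67-fold, Fas, the death receptor gene, 8.12-fold, and the granzyme inhibitor genes Serpinb9 and Serpinb6b 18.5-fold and 19.8-fold. Aldh1a2, which encodes an enzyme of retinoic acid synthesis, rose 7.21-fold and Eno2, an enolase gene, 4.72-fold.

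Several genes by which mature DC are best known did not differ in this way. Ccr7 itself had 11.54, 11.29 and 11.39 in node DC and 11.33, 11.12 and 10.95 in dermal DC, so that the groups overlapped, and its difference of 0.27 (SE 0.27) did not pass (adjusted p = 0.64). At steady state Ccr7 was higher in node DC (1.48, SE 0.27, adjusted p = 0.00010), with 11.68, 11.67 and 11.34 in node DC and 9.85, 10.53 and 9.87 in dermal DC. The change between states of -1.21 did not pass (adjusted p = 0.14), but it passed with only the groups compared in the fit (adjusted p = 0.039) and with array weights (adjusted p = 0.031). Cd86 had 10.68, 10.49 and 10.69 in node DC and 10.58, 10.09 and 10.20 in dermal DC after DNFB (adjusted p = 0.52), but was lower in node DC at steady state (-1.70), and here the change between states passed (2.03, adjusted p = 0.0024). Cd83, a marker of activated DC, was the 1 fall of the list, with 10.49, 10.10 and 10.41 in node DC and 11.02, 10.92 and 11.36 in dermal DC (-0.77, adjusted p = 0.033). All 3 genes had levels of at least 10 on the log2 scale in every dermal array after DNFB. Cd83 did not pass when any 1 of node replicates 2 and 3 and dermal replicates 1 and 3 was left out (adjusted p = 0.056 to 0.16).

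**Figure D2:**
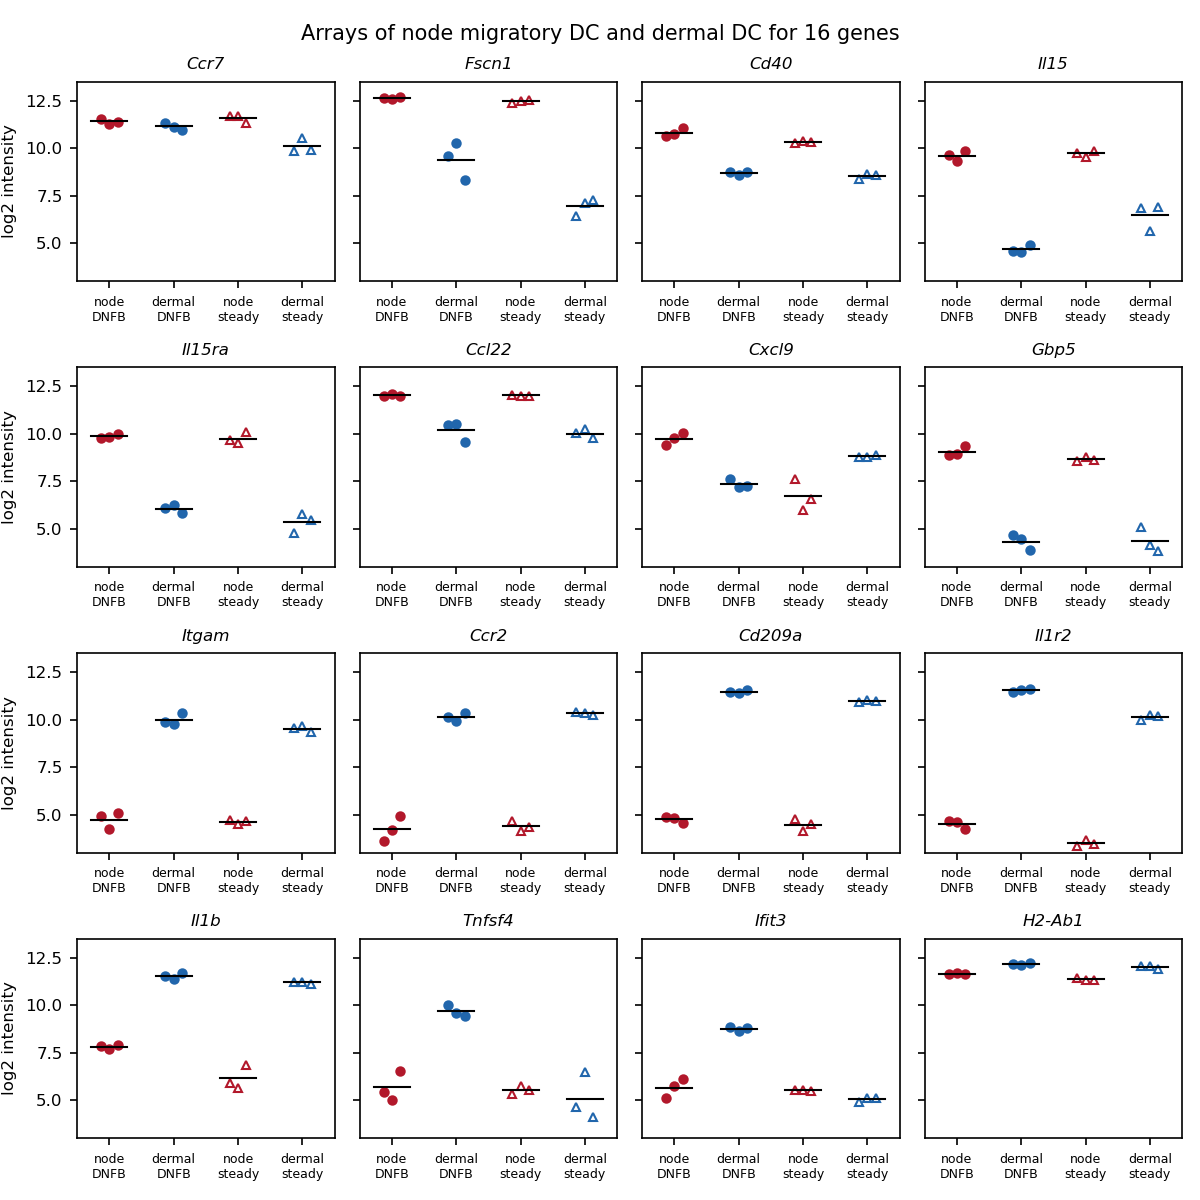
Log2 intensity of 16 genes in each of the 3 arrays per group (points) with the group mean (bar), for node and dermal DC after DNFB (filled circles) and at steady state (open triangles). After DNFB, Ccr7 overlaps between node and dermal arrays, Fscn1, Cd40, Il15, Il15ra, Ccl22, Cxcl9 and Gbp5 are higher in all node arrays, and the other 8 genes are lower in them.

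Costimulators and checkpoint ligands, which set the signals a T cell receives with its antigen, were split, with 9 rises and 7 falls among 25 and a median of 0.33. Cd40, the receptor for T cell help, had 10.63, 10.74 and 11.07 in node DC and 8.73, 8.58 and 8.74 in dermal DC (4.38-fold, adjusted p = 3.7e-08). Tnfrsf9, which encodes 4-1BB, rose 3.92-fold and Icam1, the adhesion ligand of LFA-1, 2.72-fold. Icosl (1.40), of the ICOS ligand, Cd274 (1.26), of PD-L1, Cd70 (1.15), Tnfrsf14 (1.16), Ido1 (0.64) and Cd200 made up the other rises. Among ligands of the tumour necrosis factor family, 2 went the other way. Tnfsf4, which encodes OX40L, had 5.46, 5.04 and 6.53 in node DC, against 10.00, 9.57 and 9.45 in dermal DC (SE of the difference 0.42, adjusted p = 1.8e-08), and Tnfsf9, of 4-1BB ligand, was 5.32-fold lower. Every dermal array of Tnfsf4 lay well above every node array. Lgals9, of galectin-9, was 7.41-fold lower and Havcr2, of TIM-3, 6.24-fold lower. Pdcd1lg2 (0.96, adjusted p = 0.20) and the nectin-like receptor gene Pvr (-0.30, adjusted p = 0.59) did not pass. Ido1 did not pass when any 1 of node replicate 3 and dermal replicate 1 was left out (adjusted p = 0.093 to 0.20).

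Chemokine genes gave 7 rises and 9 falls among 31. The rises were Ccl22, Cxcl9, Ccl19, Ccl5 (2.92), Ccl17 (1.35), Cxcl13 (1.52) and Cx3cl1 (1.38), which are best known as attractants of lymphocytes. Ccl22 had 12.00, 12.07 and 11.99 in node DC and 10.44, 10.54 and 9.54 in dermal DC (3.59-fold). Cxcl9, an interferon-gamma-induced attractant of activated T cells, had 9.40, 9.76 and 10.03 in node DC and 7.61, 7.18 and 7.24 in dermal DC (5.23-fold, adjusted p = 0.0019). Ccl19, a ligand of CCR7, was 3.10-fold higher with 9.88, 9.59 and 9.08 in node DC and 7.25, 9.13 and 7.28 in dermal DC, 1 of which overlapped the node arrays. The falls included attractants of monocytes and neutrophils. Ccl2 was 11.8-fold lower, with 6.06, 4.75 and 4.92 in node DC and 8.72, 8.78 and 8.91 in dermal DC, and Cxcl2 18.5-fold lower, with 6.79, 6.59 and 6.47 in node DC and 10.70, 10.85 and 10.93 in dermal DC. Ccl3 (-3.59), Ccl4 (-2.97), Ccl6 (-2.86), Ccl7 (-2.83), Ccl9 (-1.64), Cxcl3 (-1.63) and the platelet factor gene Pf4 (-3.18) also fell. Cxcl16 (0.66) and Cxcl10 (-1.02) did not pass, at adjusted p = 0.11 and 0.15. Ccl19 did not pass when any 1 of node replicates 1 and 2 and dermal replicates 1 and 3 was left out (adjusted p = 0.052 to 0.12). Cxcl13 did not pass when any 1 of node replicates 1 and 3 and dermal replicates 1 and 3 was left out (adjusted p = 0.053 to 0.085). With its probe sets averaged, Ccl19 had an adjusted p of 0.14.

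Of 29 receptors that steer leukocyte traffic 3 rose and 8 fell, with a median of -0.36. Ccr2, the receptor by which monocytes leave the marrow and enter inflamed skin, had 3.58, 4.18 and 4.92 in node DC, against 10.12, 9.92 and 10.33 in dermal DC (59.6-fold lower, adjusted p = 6.3e-16). Ccr1, another inflammatory chemokine receptor, fell by 3.71 with low signal in node DC. The complement peptide receptor genes C3ar1 and C5ar1 were 19.4-fold and 4.34-fold lower, the first of them with low signal in node DC. Cxcr4 (-1.26), Cx3cr1 (-1.33) and the atypical receptor Ccrl2 (-1.29) fell by less. Ccr6, the receptor of CCL20, rose 3.30-fold, with 5.46, 5.00 and 6.74 in node DC and 3.95, 4.09 and 3.98 in dermal DC, where it was low signal. The other rises were Gpr183, the oxysterol receptor EBI2 (1.20), and S1pr2 (0.54). Ccrl2 did not pass when dermal replicate 3 was left out (adjusted p = 0.054). S1pr2 did not pass when any 1 of node replicate 1 and dermal replicates 1 and 3 was left out (adjusted p = 0.059 to 0.15).

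Cytokine genes gave 4 rises and 8 falls among 28. Il1b had 7.84, 7.69 and 7.93 in node DC and 11.53, 11.38 and 11.71 in dermal DC (13.2-fold lower, adjusted p = 1.6e-10). Il10, an anti-inflammatory cytokine gene, had 3.87, 4.27 and 4.44 in node DC and 7.72, 7.33 and 8.10 in dermal DC (11.5-fold lower). Both a leading inflammatory and a leading anti-inflammatory cytokine gene were thus lower in every node array. Osm, of oncostatin M, was 10.6-fold lower, Vegfa, of a vascular growth factor, 10.1-fold, Il1a 5.81-fold, with low signal in node DC, and Tgfb1 4.62-fold. Besides Il15, the macrophage growth factor gene Csf1 rose 4.71-fold, Il18bp, of an inhibitor that binds interleukin 18, 4.20-fold, and Ebi3, of a cytokine subunit, 1.82-fold. Ebi3 did not pass with keratinocyte and fibroblast levels as covariates (0.72, adjusted p = 0.055). Tnf (-0.61, adjusted p = 0.14) and Il1rn (-0.73, adjusted p = 0.060) did not pass.

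Receptors of cytokines and growth factors gave 5 rises and 14 falls among 30, with a median of -0.64. Il2ra, the alpha chain of the interleukin 2 receptor, had 10.24, 10.01 and 10.56 in node DC, against 6.81, 6.77 and 5.54 in dermal DC (14.9-fold, adjusted p = 4.7e-11). Il15ra, Tnfrsf11a, of the receptor RANK (1.86), Tnfrsf1b (1.28) and Flt3 were the other rises. Csf1r, the receptor gene of the macrophage growth factor, had 5.87, 6.09 and 6.62 in node DC and 9.80, 9.91 and 10.23 in dermal DC (13.8-fold lower). Tnfrsf1a, a receptor of tumour necrosis factor, was 10.6-fold lower, the interferon receptor genes Ifngr1 and Ifnar1 were 6.10-fold and 2.82-fold lower, and the stem cell factor receptor Kit 5.06-fold. The genes of the shared beta chain Csf2rb (-0.14) and of the second chain Ifngr2 (0.37) did not pass, at adjusted p = 0.73 and 0.27.

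Genes for catching antigen were mostly lower. Of 28 endocytic and phagocytic receptors 19 fell and 1 rose, with a median of -2.30. Besides the lectin genes above, the Fc receptor genes Fcgr3 (-3.53) and Fcgr2b (-2.96), Lrp1, an endocytic receptor of the LDL receptor family (-2.57), and the haemoglobin scavenger Cd163 (-2.80, low signal in node DC) were lower. The exception was Ly75, which encodes the endocytic lectin DEC-205. It had 9.09, 9.26 and 9.50 in node DC, against 6.10, 6.20 and 4.68 in dermal DC (12.3-fold, adjusted p = 2.7e-10), and the groups did not overlap. Itgav (0.16, adjusted p = 0.80) and Clec12a (-0.28, adjusted p = 0.60) did not pass.

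Pattern recognition receptors gave 2 rises and 10 falls among 23, with a median of -0.40. Nlrp3, the sensor of an inflammasome, had 4.37, 4.55 and 4.67 in node DC, against 9.34, 8.99 and 9.61 in dermal DC (27.6-fold lower, adjusted p = 2.1e-17). The fungal lectin receptor genes Clec4e (-4.85), Clec4d (-3.31), both low signal in node DC, and Clec7a (-3.64), which encodes Dectin-1, fell, as did Tlr2, a sensor of bacterial lipoproteins (-2.69). The rises were Ly96, the MD-2 partner of the lipopolysaccharide receptor (2.64), and Tlr12 (1.03, low signal in dermal DC). Tlr9 (-0.02) and Sting1 (0.14), sensors of DNA and of cyclic dinucleotides, had adjusted p = 0.98 and 0.86.

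Lysosome and antigen breakdown genes gave 6 rises and 15 falls among 29, with a median of -0.55. Cd68, a lysosomal membrane protein of phagocytes, had 8.17, 8.37 and 8.60 in node DC and 11.14, 11.12 and 11.22 in dermal DC (6.88-fold lower). Gla, of alpha-galactosidase, was 11.6-fold lower, Man2b1, of alpha-mannosidase, 4.47-fold, and the cathepsin genes Ctsl and Ctsa 4.43-fold and 2.89-fold. The main lysosomal membrane proteins went in opposite directions. Lamp1 rose by 1.21 (adjusted p = 2.9e-10) and Lamp2 fell by 1.34 (adjusted p = 7.9e-07), and the arrays of neither gene overlapped between the groups. Cst3, a cathepsin inhibitor gene (0.13), and Ifi30, of a lysosomal thiol reductase (0.16), did not pass, at adjusted p = 0.37 and 0.56.

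The 2 presentation pathways moved apart. Of 10 MHC class II genes 1 rose and 5 fell, with a median of -0.55, while of 15 MHC class I genes 11 rose and 2 fell, with a median of 0.92. Both gates used MHC class II, and the classical class II genes were bright with small differences. H2-Ab1 had 11.67, 11.68 and 11.62 in node DC and 12.17, 12.14 and 12.23 in dermal DC (-0.52, adjusted p = 0.012), and H2-Eb1 differed by -0.46 (adjusted p = 0.011). H2-Aa (-0.25) and Cd74, of the invariant chain (-0.18), did not pass, at adjusted p = 0.27 and 0.30. Genes around the classical chains differed by more. H2-Ob, a modifier of peptide exchange, was 8.77-fold lower, H2-DMa, of the exchange factor itself, 2.89-fold lower, and Marchf1, of a ligase that removes class II from the cell surface, 2.27-fold lower. H2-Eb2 had 9.27, 9.31 and 9.78 in node DC, against 6.84, 7.21 and 6.32 in dermal DC (6.33-fold higher). In the class I pathway, Tapbpl, the peptide editor TAPBPR, had 9.78, 9.73 and 9.94 in node DC and 6.18, 6.53 and 6.16 in dermal DC (11.5-fold, adjusted p = 1.1e-12). The immunoproteasome genes Psmb9 and Psmb8 rose 2.56-fold and 2.20-fold, the proteasome activator genes Psme2 and Psme1 3.20-fold and 1.68-fold, and the peptide loading genes Tapbp and Tap2 2.34-fold and 2.33-fold. The chaperone genes Calr and Pdia3 fell by 1.00 and 0.89. B2m, the class I light chain, was among the brightest genes in all 6 arrays (0.30, adjusted p = 0.064). H2-Eb1 did not pass when any 1 of node replicate 2 and dermal replicate 3 was left out (adjusted p = 0.053 to 0.087).

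**Figure D3:**
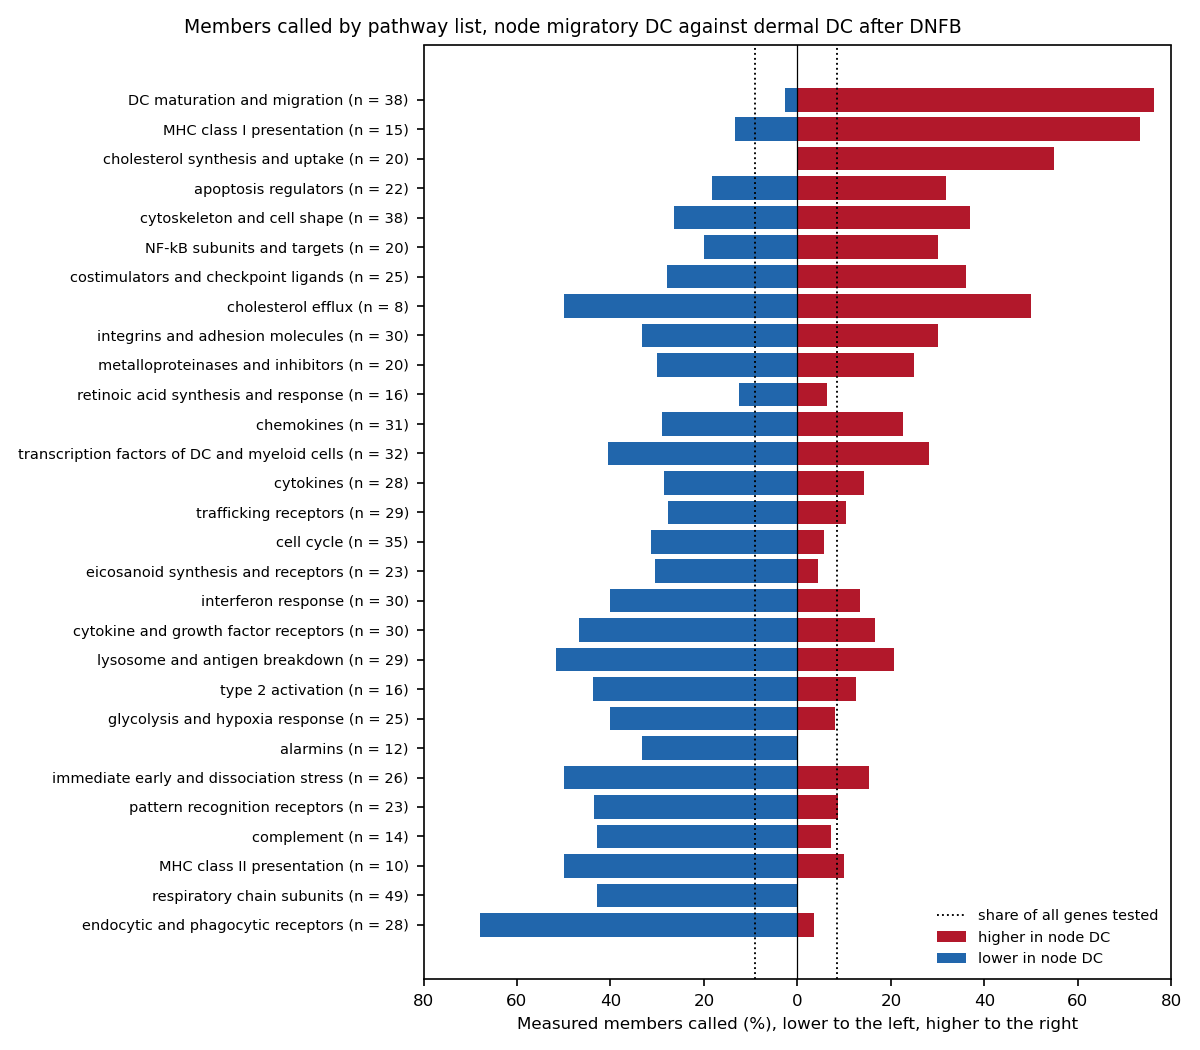
Share of measured members of each pathway list called higher (red, to the right) or lower (blue, to the left) in node migratory DC than in dermal DC after DNFB, with the number measured in brackets. Dotted lines mark 8.44% and 9.04%, the shares of all genes tested, and the maturation and endocytic receptor lists stand at the 2 ends.

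Interferon response genes gave 4 rises and 12 falls among 30, with a median of -0.43, and at steady state 12 rises and 3 falls with a median of 0.49. Ifit3, an antiviral effector gene, had 5.11, 5.73 and 6.10 in node DC and 8.86, 8.65 and 8.81 in dermal DC after DNFB (8.73-fold lower, adjusted p = 3e-06). At steady state it had 5.53, 5.55 and 5.48 in node DC and 4.90, 5.13 and 5.14 in dermal DC, so that the dermal arrays after DNFB stood apart from the other 3 groups. Ifit2 (-1.73), Isg20 (-2.31), Oas2 (-2.04), Rtp4 (-2.59), Irf7 (-2.08) and Ifi27l2a (-1.87), all induced by interferon, were lower too. The change between states passed for 8 of the 30 genes, each in the direction of a lower node minus dermal difference after DNFB, among them Ifit3 (-3.59), Isg20 (-2.22) and Oas2 (-2.17), against 0.497% of all genes. Gbp5 (4.72), Usp18, of a deubiquitinase-like inhibitor of interferon signalling (1.85), Gbp3 (1.79) and Herc6 (1.70) rose. Ifi35 (-0.01) and Trim30a (-0.43) did not pass, at adjusted p = 0.99 and 0.28.

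The promoters of 2 rises and 2 falls are shown because all hold the letters of the interferon-stimulated response element while their genes lay on opposite sides of this comparison. They are Gbp5 and Apol7c, which rose, and Ifit3 and Oas3, which fell. All 4 were chosen after their values were seen, and Oas3 differed by -1.36 (adjusted p = 0.00065). Each line gives the 250 bases before the gene start from RefSeq on build GRCm38.p6, 5′ to 3′ on the gene's strand. Capitals mark GAAANNGAAA or its reverse complement. Gbp5 lies on chromosome 3 (chr3:142496684-142496933, plus strand), Apol7c on chromosome 15 (chr15:77533316-77533565, minus strand), Ifit3 on chromosome 19 (chr19:34583279-34583528, plus strand) and Oas3 on chromosome 5 (chr5:120777660-120777909, minus strand).
Gbp5: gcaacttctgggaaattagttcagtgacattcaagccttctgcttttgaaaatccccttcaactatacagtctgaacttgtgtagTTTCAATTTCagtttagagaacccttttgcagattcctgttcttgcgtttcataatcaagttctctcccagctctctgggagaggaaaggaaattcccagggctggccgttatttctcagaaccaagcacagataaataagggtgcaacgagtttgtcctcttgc
Apol7c: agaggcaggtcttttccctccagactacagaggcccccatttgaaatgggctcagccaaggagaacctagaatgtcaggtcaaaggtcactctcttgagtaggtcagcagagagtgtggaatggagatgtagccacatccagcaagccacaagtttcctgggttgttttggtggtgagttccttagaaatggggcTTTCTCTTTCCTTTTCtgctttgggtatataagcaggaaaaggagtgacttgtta
Ifit3: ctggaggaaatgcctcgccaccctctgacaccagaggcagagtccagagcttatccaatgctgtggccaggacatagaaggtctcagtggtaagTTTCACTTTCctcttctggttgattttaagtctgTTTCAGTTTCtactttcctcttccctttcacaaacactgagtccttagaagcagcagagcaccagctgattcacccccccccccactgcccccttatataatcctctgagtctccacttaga
Oas3: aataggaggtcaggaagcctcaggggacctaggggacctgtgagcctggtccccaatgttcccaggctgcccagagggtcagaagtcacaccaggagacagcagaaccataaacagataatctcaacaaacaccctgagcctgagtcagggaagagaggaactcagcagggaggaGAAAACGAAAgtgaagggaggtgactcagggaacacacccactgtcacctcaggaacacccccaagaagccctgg

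Gbp5 and Oas3 held 1 match each, which began 165 and 75 bases before the start. Ifit3 held 2, at 156 and 122 bases, and Apol7c 2 that overlap each other, at 55 and 49 bases. Searched on both strands, these letters were in the 250 bases of 3.40% of the 15613 measured genes with a RefSeq promoter. They were in 3.84% of the 756 genes that rose and 5.49% of the 948 that fell at least 2-fold. Of the 21 interferon response genes with a promoter, 11 held a match, which were 2 of 3 that rose, 4 of 9 that fell and 5 of 9 that did not pass.

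NF-kB genes gave 6 rises and 4 falls among 20. Relb, the subunit of the alternative pathway, had 9.92, 9.52 and 9.90 in node DC and 7.42, 7.44 and 7.55 in dermal DC (4.96-fold, adjusted p = 2.1e-07), and its partner Nfkb2 rose 2.69-fold. Birc2 and Birc3, of ubiquitin ligases that act on this pathway, rose 8.13-fold and 2.36-fold. The inhibitor gene Tnip3 (-4.40), Nfkbiz (-0.88), the subunit Rel (-0.98) and Map3k14, of a kinase of the alternative pathway (-0.99), fell. Nfkbia (-0.03) and Nfkbib (-0.37) did not pass, at adjusted p = 0.96 and 0.12.

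Transcription factors of DC and myeloid cells gave 9 rises and 13 falls among 32. Batf3, known from cross-presenting DC, had 9.58, 9.20 and 9.31 in node DC, against 6.72, 6.76 and 6.65 in dermal DC (6.28-fold, adjusted p = 1.7e-08), and Irf8, of the same DC branch, had 9.08, 9.37 and 9.61 in node DC and 7.28, 7.65 and 7.31 in dermal DC (3.85-fold). Spib, an ETS factor of plasmacytoid DC and B cells, rose 9.56-fold. Klf4, which CD11b+ DC and monocytes use, was 4.48-fold lower, the oxidative stress regulator Nfe2l2 5.05-fold, Nfil3 3.55-fold, and the aryl hydrocarbon receptor gene Ahr 2.93-fold lower. Spi1, of PU.1 (-0.27), and Id2 (0.73), which DC depend on, did not pass, at adjusted p = 0.12 and 0.065.

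Of 38 cytoskeleton genes 14 rose and 10 fell, with a median of 0.19. Actn1, an actin cross-linker, rose 6.51-fold, Swap70, a regulator of DC motility, 6.31-fold, and the tubulin genes Tubb2b and Tubb2a 12.5-fold and 2.46-fold. The membrane linker Ezr (-1.61), the tubulin gene Tubb6 (-1.44) and the small GTPase Rac2 (4.01-fold) fell, and Actb (0.14) and Tmsb4x (0.25) did not pass, at adjusted p = 0.22 and 0.051. Integrins and adhesion molecules gave 9 rises and 10 falls among 30. Vcam1, a ligand of integrin alpha 4, had 8.84, 8.68 and 8.88 in node DC and 4.95, 4.93 and 4.95 in dermal DC (14.5-fold), and Itgb8, of the integrin that activates transforming growth factor beta, rose by 1.51 with low signal in dermal DC. Cdh1, of E-cadherin, had 4.59, 4.69 and 4.89 in node DC, against 8.68, 8.51 and 9.39 in dermal DC (17.6-fold lower), and Itgb7 was 11.2-fold lower. Alcam (-0.41) and Cd47 (0.36) did not pass, at adjusted p = 0.21 and 0.10.

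Of 20 metalloproteinases, plasminogen activators and inhibitors 5 rose and 6 fell. The falls were the matrix-degrading genes Mmp12 (-3.65) and Mmp19 (-3.73), the plasminogen activator Plau (-2.56) and its receptor Plaur (-5.35), and the inhibitors Timp1 and Timp2 (-1.66). Plaur had 5.00, 4.62 and 4.69 in node DC, against 10.11, 10.04 and 10.20 in dermal DC, and its adjusted p of 3.6e-20 was among the smallest of the comparison. Adam23 rose 6.37-fold, the membrane protease Mmp25 3.46-fold and the sheddase Adam10 2.09-fold, with Adam17 (0.64) and Adam19 (0.67) rising by less. Mmp14 (-0.07) and Adam8 (0.53) did not pass, at adjusted p = 0.95 and 0.17. Adam17 did not pass when any 1 of node replicate 3 and dermal replicates 1 and 2 was left out (adjusted p = 0.068 to 0.083). Adam19 did not pass when any 1 of node replicates 2 and 3 and dermal replicate 2 was left out (adjusted p = 0.079 to 0.22). Timp2 did not pass when any 1 of node replicate 2 and dermal replicate 3 was left out (adjusted p = 0.075 to 0.089).

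Metabolic genes went different ways. Of 20 genes of cholesterol synthesis and uptake 11 rose and 0 fell, with a median of 0.78. They included Idi1 (9.90, 9.94 and 10.30 in node DC, 7.60, 6.85 and 7.24 in dermal DC), Fdft1, the first step committed to sterols (5.41-fold), Hmgcs1 (3.01-fold), Cyp51 (2.72-fold), Mvd (2.47-fold), Fdps (2.40-fold), Mvk (1.66-fold) and Tm7sf2 (1.69-fold), all enzymes of the pathway. The regulator genes Srebf2 (0.20) and Insig1 (-0.42) did not pass, at adjusted p = 0.71 and 0.39. All 8 cholesterol efflux genes passed, 4 each way, with the exporter gene Abcg1 up by 1.51 and the exporter gene Abca1 down by 1.69, Mylip up by 1.04, Nr1h3, of the sterol sensor LXR alpha, up by 1.06, Npc2 up by 0.47, and Pltp (-2.94), Lpcat3 (-0.97) and Apoe (-0.74) lower. Glycolysis and hypoxia genes gave 2 rises and 10 falls among 25, with a median of -0.49. Pfkfb3, an activator of glycolysis, had 11.04, 11.08 and 11.17 in node DC and 8.25, 8.26 and 8.21 in dermal DC (7.26-fold higher, the other rise being Eno2), while the glycolytic genes Hk2 (-2.63), Pfkp (-2.53) and Ldha (-1.52), the glucose transporter gene Slc2a1 (-2.31) and the lactate transporter gene Slc16a3 (-2.11) were lower. Aldoa (-0.09) and Hk1 (-0.13) did not pass, at adjusted p = 0.85 and 0.75. Of 49 respiratory chain subunits 21 fell and 0 rose, with a median of -0.45. The falls with the smallest adjusted p were in complex I, with Ndufa6 (-1.63), Ndufb2 (-1.36), Ndufb8 (-1.15), Ndufs8 (-1.08), Ndufa5 (-1.07) and Ndufb10 (-0.91), in complex II with Sdhb (-0.94), and in complex III with Uqcrc1 (-0.87), while the complex IV genes Cox6c (-0.06) and Cox6b1 (-0.19) did not pass, at adjusted p = 0.82 and 0.51. Apoe did not pass when any 1 of node replicate 2 and dermal replicate 2 was left out (adjusted p = 0.11 to 0.12). Nr1h3 did not pass when dermal replicate 3 was left out (adjusted p = 0.066).

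Cell cycle genes gave 2 rises and 11 falls among 35 after DNFB, and 0 rises and 23 falls at steady state. Mki67, a marker of dividing cells, had 5.71, 5.68 and 6.08 in node DC and 7.26, 7.37 and 7.18 in dermal DC after DNFB (-1.45, adjusted p = 4.9e-05), against a difference of -3.37 at steady state, and the change between states passed (1.92, adjusted p = 0.0024). Ccnb2 (-3.01), Birc5 (-2.13), Top2a (-1.54), Ube2c (-1.46) and Pcna (-1.04) fell, and Melk (1.61) and the replication helicase gene Mcm3 (0.91) rose. Tk1 (-0.05) and Mcm6 (-0.04) did not pass, at adjusted p = 0.97 and 0.97. With keratinocyte and fibroblast levels as covariates 6 genes of the list fell after DNFB, and Ube2c did not pass (adjusted p = 0.056).

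Immediate early genes, which answer stimulation within minutes and are known to rise while tissue is digested, gave 4 rises and 13 falls among 26, with a median of -0.45. Nr4a1 had 5.37, 4.71 and 4.16 in node DC and 10.62, 10.28 and 10.75 in dermal DC (56.1-fold lower), and the related genes Nr4a2 (-3.98) and Nr4a3 (-2.82) followed it. Myc (-3.83), Ier3 (-2.68), Btg2 (-1.48), Egr2 (-1.42) and Junb (-1.07) were also lower, while Dusp1 (-0.06) and Hspa8 (0.06) did not pass, at adjusted p = 0.88 and 0.77. The rises were the heat shock genes Hspa1a (1.05) and Hsph1 (0.88), Jun (0.93) and Ier5 (0.78). This list moved in the same samples as the falls of other inducible genes such as Il1b, Cxcl2 and Ptgs2, and its part in them was not tested. Hspa1a did not pass when any 1 of node replicate 3 and dermal replicate 2 was left out (adjusted p = 0.16 to 0.19). Hsph1 did not pass when any 1 of node replicates 1 and 3 and dermal replicates 1 and 2 was left out (adjusted p = 0.061 to 0.17).

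Among 22 apoptosis regulators 7 rose and 4 fell. Besides Birc2, Birc3 and Fas, the caspase-8 inhibitor Cflar rose 2.15-fold and the death receptor Tnfrsf10b 2.44-fold, with low signal in dermal DC, and Bcl2l1 (1.19) and Gadd45b (0.91) by less. Casp6 (-3.02), the survival gene Bcl2 (-1.55) and Bcl2l11, of the killer protein Bim (-1.24), and Mcl1 (-0.45) fell, and Bak1 (0.46) and Casp8 (-0.58) did not pass, at adjusted p = 0.064 and 0.17. Gadd45b did not pass when any 1 of node replicate 1 and dermal replicates 1 and 2 was left out (adjusted p = 0.066 to 0.098).

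Eicosanoid genes gave 1 rise and 7 falls among 23. Alox5ap, which feeds 5-lipoxygenase, had 6.68, 6.17 and 6.21 in node DC, against 11.71, 11.59 and 11.91 in dermal DC (41.7-fold lower, adjusted p = 1.2e-18), and Alox5 was 14.5-fold lower. Lta4h, which makes leukotriene B4 (-1.56), its receptor gene Ltb4r1 (-3.85) and the cysteinyl leukotriene receptor gene Cysltr1 (-4.69) were lower too, yet Ltc4s, of leukotriene C4 synthase, had 8.12, 7.62 and 8.63 in node DC, against 5.11, 5.50 and 5.55 in dermal DC (6.67-fold higher). Ptgs2, of cyclooxygenase-2, was 9.81-fold lower and Hpgd, which breaks prostaglandins down, 4.54-fold lower. Ptger4 (0.35) and Ptges3 (-0.16) did not pass, at adjusted p = 0.37 and 0.71. Type 2 activation genes gave 2 rises and 7 falls among 16, the rises being Ccl22 and Ccl17, with Retnla (-4.30) and Tgm2 (-2.75) lower and Il4ra (-0.19) not passing (adjusted p = 0.50). Of 16 retinoic acid genes Aldh1a2 rose, with 8.13, 7.74 and 8.23 in node DC and 4.99, 5.50 and 5.07 in dermal DC. The receptor gene Rara (-1.66) and Dhrs9 (-0.78) fell. Calls made up 18.75% of this list, close to the 17.5% of all genes. Dhrs3 (0.31), Rxra (-0.67), Rdh10 (-0.78), Crabp2 (-0.57) and Stra6 (0.38) did not pass, at adjusted p from 0.095 to 0.54.

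Complement genes gave 1 rise and 6 falls among 14. Cfp, of properdin, had 5.79, 5.63 and 6.64 in node DC, against 10.96, 10.74 and 11.33 in dermal DC (31.8-fold lower), and the C1q chain genes C1qa (-1.43), C1qb (-2.60) and C1qc (-2.11) were lower, whereas Cfb, of factor B, rose 5.04-fold. C2 (0.36), C4b (-0.27) and C1ra (-0.42) did not pass, at adjusted p from 0.58 to 0.75. Of 12 alarmin genes 4 fell and 0 rose, with Anxa1 (-4.47), S100a10 (-0.93) and S100a6 (-0.57) beside Il1a, while S100a11 (-0.18) and S100a4 (-0.01) were bright in all 6 arrays and did not pass, at adjusted p = 0.21 and 0.98. C1qa did not pass when any 1 of node replicate 1 and dermal replicate 3 was left out (adjusted p = 0.055 to 0.11).

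Lists of myeloid identity held more falls than rises. Conventional DC core genes gave 5 rises and 11 falls among 20, with Hmgn3 (3.45) the steepest rise and Kmo (-4.62) the steepest fall. H2-Eb2, Slamf7 (1.19), Flt3 and Adam19 also rose. Spint1 (-1.97) fell too. CD11b+ DC genes gave 1 rise and 9 falls among 12. The rise was Esam (2.23), and Sirpa, a surface marker of this branch, had 10.11, 9.83 and 10.13 in node DC and 10.56, 10.42 and 10.69 in dermal DC (-0.53, adjusted p = 0.00093). The mean level of that list lay at 5.83 to 6.05 in node arrays and 8.38 to 8.62 in dermal arrays. Macrophage genes gave 0 rises and 19 falls among 29, with list means of 4.87 to 5.18 in node arrays and 6.64 to 6.96 in dermal arrays. Selenop (-3.40) and Tcn2 (-1.61) were among them. Monocyte genes gave 0 rises and 8 falls among 12, with list means of 4.97 to 5.42 in node arrays and 7.28 to 7.73 in dermal arrays. Lyz2, of lysozyme, had 9.34, 9.25 and 10.55 in node DC and 12.30, 12.37 and 12.51 in dermal DC, and Fn1 (-3.02) and Plac8 (-4.80) fell by more. In these bulk sorts fewer cells of a type and less RNA per cell cannot be told apart.

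Markers of other DC were mixed. Of 11 cDC1 genes 3 rose and 3 fell: Cd8a (2.15) rose with Batf3 and Irf8, and Naaa (-4.36) and Wdfy4 (-2.71) fell with Itgae (-0.83). Langerhans cell genes gave 1 rise and 1 fall among 6, which were Ly75 and Cdh1, and Cd207, of langerin, was near or below the low signal level in node arrays at 3.91, 4.11 and 3.52, against 4.48, 4.70 and 4.74 in dermal DC (adjusted p = 0.089). Cldn1 (0.27, adjusted p = 0.85) did not pass. Plasmacytoid DC genes gave 2 rises and 1 fall among 8, with Pacsin1 (0.45) beside Spib, Pld4 (-3.22) lower, and Tcf4 (0.34) and Ccr9 (-0.38) not passing, at adjusted p = 0.48 and 0.15. Pacsin1 did not pass when any 1 of node replicates 1 and 2 and dermal replicates 1 and 3 was left out (adjusted p = 0.080 to 0.24).

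Calls, all of them falls, made up 22.2% of keratinocyte and 23.1% of fibroblast genes, against 17.5% called and 9.04% falling among all genes. Keratinocyte genes gave 0 rises and 4 falls among 18, with list means of 4.35 to 4.55 in node arrays and 4.91 to 5.49 in dermal arrays. Krt5, of the basal layer, had 4.51, 4.68 and 4.54 in node DC and 8.41, 7.77 and 7.49 in dermal DC, and Krt14 (-2.02), Krt15 (-1.89) and Perp (-1.41) fell, while Sfn did not pass (-1.21, adjusted p = 0.055). Fibroblast genes gave 0 rises and 3 falls among 13, with list means of 4.49 to 4.80 in node arrays and 5.04 to 5.62 in dermal arrays. Dcn, of decorin, had 5.11, 4.99 and 4.84 in node DC and 6.63, 6.01 and 7.99 in dermal DC, and Sparc (4.01-fold) and Serpinf1 (-1.72) fell. Postn (-1.38) and Lum (-0.69) did not pass, at adjusted p = 0.21 and 0.64. Perp did not pass when any 1 of node replicate 1 and dermal replicate 1 was left out (adjusted p = 0.066 to 0.094). Serpinf1 did not pass when any 1 of node replicate 3 and dermal replicates 1 and 3 was left out (adjusted p = 0.063 to 0.093). With the means of both lists as covariates, 2977 of the 3486 calls remained in the same direction. Neither mean overlapped between the groups, so the covariates cannot be told apart from tissue. In that fit 4 fibroblast genes and 1 keratinocyte gene rose, and the calls that remained do not separate DC from skin RNA.

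Genes of lymphoid cells held no rises. Calls made up 35.7% of T cell, 22.2% of NK cell and 16.7% of B cell genes, against 17.5% of all genes. The B cell list thus had no more calls than genes at large. T cell genes gave 0 rises and 5 falls among 14, with Cd3d (-1.36), Cd3g (-0.93), both low signal in node DC, Cd5 (-0.85), Lat (-0.93) and Cd2 (-1.32), and with Thy1 (0.32) and Cd3e (-0.73) not passing, at adjusted p = 0.85 and 0.22. NK cell genes gave 0 rises and 2 falls among 9. Klrd1, of the NK receptor CD94, had 7.57, 6.95 and 7.92 in node DC, against 11.49, 10.80 and 11.11 in dermal DC (12.6-fold lower), while Prf1, of perforin, had 5.30, 5.52 and 4.84 in node DC and 5.25, 5.51 and 5.23 in dermal DC (adjusted p = 0.81). Gzmb fell by 1.27 with low signal in node DC, and Eomes (0.22), Tbx21 (-0.33) and Klre1 (-0.20) did not pass, at adjusted p from 0.25 to 0.35. B cell genes gave 0 rises and 2 falls among 12, Cd22 (-0.83) and Bank1 (-1.05, low signal in node DC), and Cd79b was 6.95, 6.30 and 6.64 in node DC and 6.64, 6.06 and 7.27 in dermal DC (adjusted p = 0.99). No gene of the neutrophil (11 measured), mast cell and basophil (10), erythroid and platelet (5), endothelial (12), cartilage and muscle (11) or melanocyte and Schwann cell (5) lists was called by limma, and 4 of these 54 had an unadjusted p under 0.05. In mast cell genes 1 dermal array stood apart. Mcpt4 had 3.78, 4.00 and 3.75 in node DC and 3.73, 3.66 and 8.52 in dermal DC, and Cpa3 had 3.39, 3.39 and 3.12 in node DC and 3.46, 3.16 and 7.01 in dermal DC. Without that array, dermal replicate 3, the comparison called 2824 genes. Lymph node stroma genes gave 3 rises and 2 falls among 10, the rises being Vcam1, Ccl19 and Cxcl13 (1.52) and the falls Pdpn (-1.84) and Bst1 (-1.16). The part that RNA of stromal cells played in those 3 rises was not tested. Bank1 did not pass when any 1 of the 6 arrays was left out (adjusted p = 0.078 to 0.13). Cd2 did not pass when any 1 of node replicates 1 and 3 and dermal replicates 1, 2 and 3 was left out (adjusted p = 0.073 to 0.18). Cd3g did not pass when any 1 of node replicate 1 and dermal replicate 1 was left out (adjusted p = 0.073 to 0.17). Lat did not pass when any 1 of node replicates 1 and 3 and dermal replicates 1 and 3 was left out (adjusted p = 0.060 to 0.13). Bst1 did not pass when any 1 of node replicate 1 and dermal replicate 3 was left out (adjusted p = 0.15 to 0.17). With keratinocyte and fibroblast levels as covariates 2 T cell genes fell, and Cd2 (adjusted p = 0.13), Cd3g (0.11) and Lat (0.066) did not pass.

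**Figure D4:**
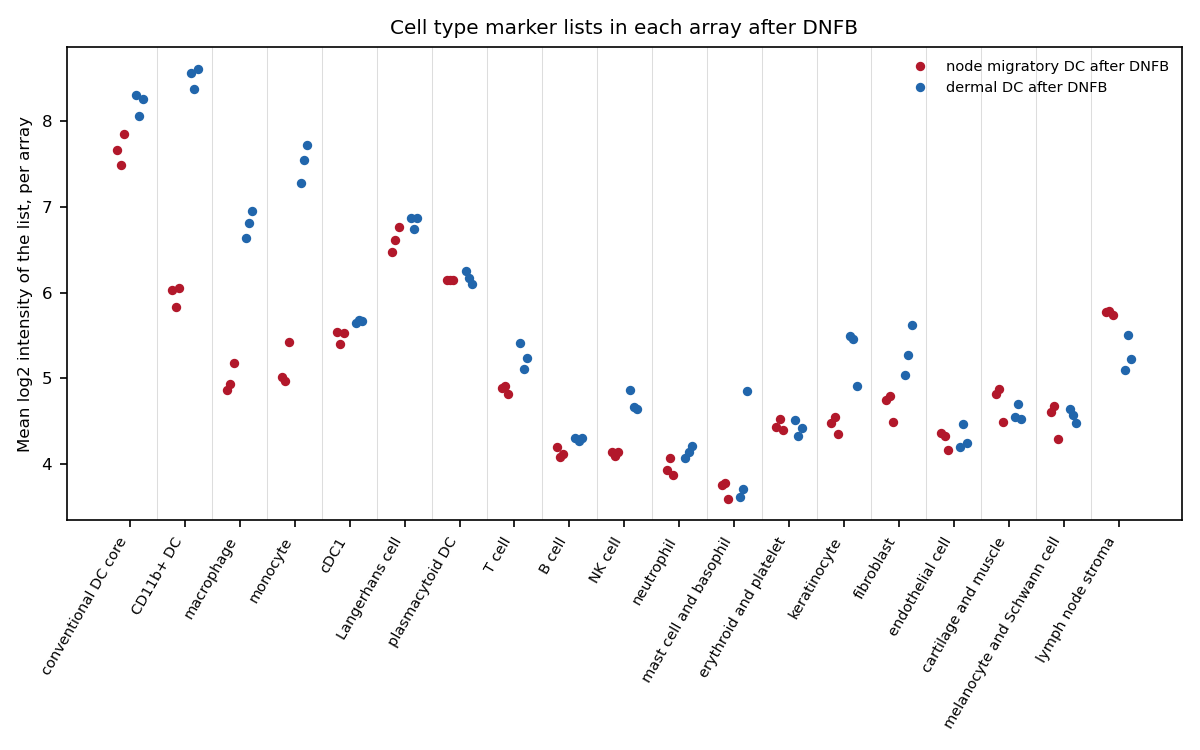
Mean log2 intensity of each cell type marker list in every array of node migratory DC (red) and dermal DC (blue) after DNFB. The CD11b+ DC, macrophage and monocyte lists lie lower in all 3 node arrays, and 1 dermal array stands apart in the mast cell and basophil list. The conventional DC core, cDC1, T cell, B cell, NK cell, keratinocyte and fibroblast lists also lie lower in all node arrays, by less. The lymph node stroma list lies higher in them.

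The same comparison at steady state called 2023 rises and 2017 falls, which is 10.1% of genes in each direction and 20.3% in all. With array medians centred, the share of rises among the calls was 37.6% at steady state, against 50.1% without. Of the rises after DNFB 64.7% were rises at steady state too, and these made up 53.8% of the steady-state rises. Of the falls after DNFB 71.1% were falls at steady state, or 63.6% of the steady-state falls. Only 15 genes were called in opposite directions, 7 higher in node DC after DNFB and lower at steady state, and 8 the reverse. A test of the difference between both differences called 261 genes, 1.31% of those tested, with 162 higher (0.813%) and 99 lower (0.497%) node minus dermal differences after DNFB, taken with their sign. The higher ones were 62.1% of these calls, and 73.1% with array medians centred. Keratinocyte list means in dermal arrays were 5.87 to 6.24 at steady state, against 4.91 to 5.49 after DNFB. Macrophage list means were 7.27 to 7.50 against 6.64 to 6.96, while fibroblast and monocyte means overlapped. With keratinocyte and fibroblast levels as covariates, 3146 genes (1399 rises, 1747 falls) were called at steady state and 235 between states. The part of other cells in these changes was not tested.

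Some of the largest differences had a like size at steady state. Apol7c differed by 6.95 at steady state, Il1r2 by -6.66, and Cd209a by -6.50, and none of these was shown to differ between states (adjusted p of 0.84 to 0.96). Fscn1 had 12.36, 12.48 and 12.54 in node DC and 6.43, 7.10 and 7.26 in dermal DC at steady state, and the change of its difference narrowly missed the threshold (-2.28, adjusted p = 0.052). That change passed in 6 alternatives, at adjusted p = 0.0094 (-2.81) without dermal replicate 3 after DNFB, 0.021 (-2.68) with keratinocyte and fibroblast levels as covariates, and 0.012 to 0.050 with array weights, low values left out, an intensity trend or only the groups compared.

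**Figure D5:**
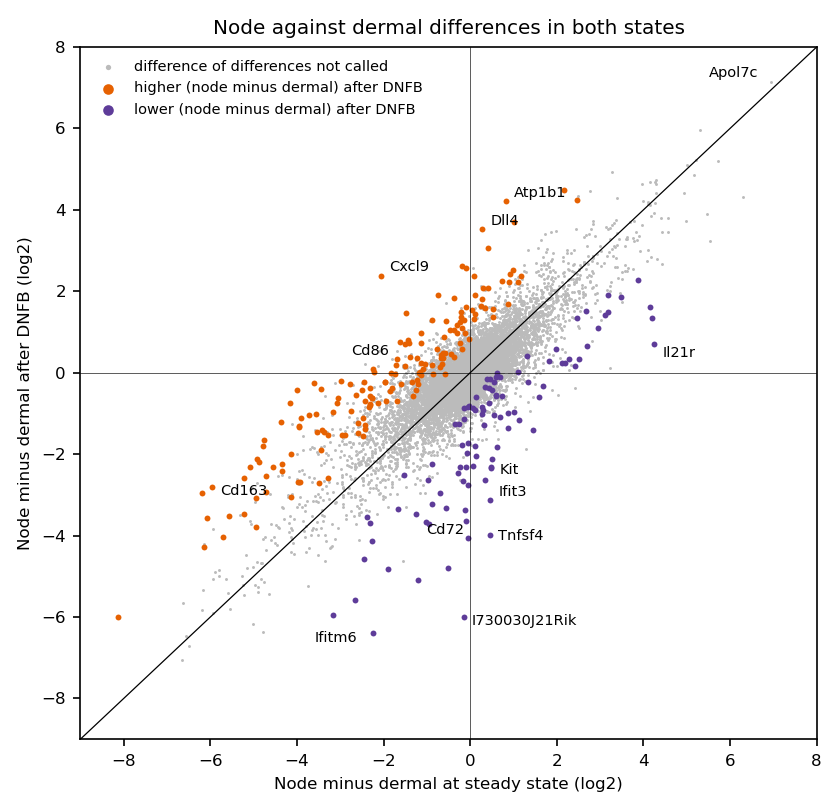
Node minus dermal difference of each gene after DNFB (vertical axis) against that at steady state (horizontal axis), in log2 units, with the line of equal differences. Orange points are the 162 genes with a higher and purple points the 99 with a lower signed difference after DNFB, such as Cxcl9 and Tnfsf4.

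Among genes whose signed difference was higher after DNFB, Cxcl9 led. It had 9.40, 9.76 and 10.03 in node DC and 7.61, 7.18 and 7.24 in dermal DC after DNFB, and 7.64, 6.01 and 6.59 in node DC and 8.77, 8.77 and 8.90 in dermal DC at steady state, so the order of the groups turned round (4.45, SE 0.78, adjusted p = 0.0017). Dll4, a Notch ligand gene, had 8.51, 8.25 and 8.94 in node DC and 5.03, 5.44 and 4.67 in dermal DC after DNFB, against 4.91, 5.04 and 4.88 in node DC and 4.59, 4.73 and 4.67 in dermal DC at steady state (3.24, adjusted p = 1.2e-05). Only the node arrays after DNFB were high. Atp1b1, of a sodium pump subunit, had a change of 3.39, with 8.79, 8.07 and 8.97 in node DC after DNFB and 5.34, 5.22 and 4.60 in node DC at steady state. For Cd302 (3.42), Cytl1 (3.56), Spink2 (3.35), Lyz1 (3.23) and Cd163 (3.16) the dermal level at steady state was the highest of the 4 groups. Cd302, a C-type lectin gene, had 6.71, 7.12 and 7.72 in node DC and 8.06, 7.82 and 7.91 in dermal DC after DNFB, and 5.01, 4.71 and 4.02 in node DC and 8.67, 8.49 and 9.08 in dermal DC at steady state. The change of Cytl1 passed only with all arrays or without 1 of the 12, and had adjusted p = 0.051 to 0.12 without any 1 of the other 11.

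Among the genes whose signed difference was lower after DNFB, dermal DC after DNFB were the high group for most of those named. I730030J21Rik had 3.38, 3.64 and 3.53 in node DC and 10.11, 8.56 and 9.87 in dermal DC after DNFB, against 3.22, 3.40 and 5.53 in node DC and 4.57, 3.75 and 4.28 in dermal DC at steady state (-5.85, adjusted p = 7.1e-06). Tnfsf4 had 5.33, 5.73 and 5.52 in node DC and 4.63, 6.48 and 4.14 in dermal DC at steady state, where it did not pass, and its change between states was -4.44 (SE 0.60, adjusted p = 5.7e-05). Cd72, a receptor gene known from B cells, had 5.03, 5.04 and 5.56 in node DC and 9.43, 9.10 and 9.31 in dermal DC after DNFB, and 4.46, 4.08 and 5.41 in node DC and 5.33, 4.03 and 4.74 in dermal DC at steady state (-4.02). Plac8 (-4.28), Ifitm6 (-4.16), Gm9733 (-3.87) and Ifit3 (-3.59) showed the same order. Il21r, the receptor gene of interleukin 21, differed in kind: it had 9.42, 9.02 and 9.82 in node DC and 8.86, 8.44 and 8.89 in dermal DC after DNFB, and 9.29, 9.21 and 9.50 in node DC and 5.07, 5.14 and 5.07 in dermal DC at steady state, where only the dermal arrays were low (-3.55, adjusted p = 1.2e-05). Ccr1 (-2.75), Kit (-2.82) and Fcgr1 (-2.23) also had a lower node minus dermal difference after DNFB.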

How the data were processed

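RNA of sorted cells was amplified with the NuGEN Ovation Pico kit, per the labels' protocols, and hybridised to 1-colour Affymetrix mouse Gene 1.0 ST arrays. The deposited values are log2 intensities that the authors made with affy and RMA (per the submitters' processing notes). Versions are not given in the sources used here, and nothing was rescaled. Of 34760 probe sets 21640 carried 1 gene symbol, 1321 several and 11799 none. For each of 19937 genes the probe set with the highest mean over all 38 arrays was kept.

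All 13 groups were fitted together with limma 3.58.1 in R 4.3.3, giving 25 residual and 3.13 prior degrees of freedom, and p-values were adjusted by Benjamini and Hochberg over all genes, with calls at 0.05. Genes of 48 lists were followed, and 839 of their 902 genes were measured. The members and lists were chosen with earlier results of these data known. Genes named are the 15 largest called rises and falls without overlap between groups, up to 8 per pathway list and 5 per cell type list by smallest adjusted p plus the 2 brightest that did not pass, the sort markers and Ccr7, and the 8 largest changes between states each way. Others are said to be chosen after their values were seen. Arrays of a group are independent pools of mice. Node and dermal arrays were fitted as unpaired, although mice shared between tissues are not excluded. The spread of each gene was pooled over all 13 groups, so p-values do not rest on the compared arrays alone. A group with a wider spread than the others is not given its own variance. In an exact permutation test 3 against 3 arrays could not go below p = 0.1. The series names 3 batches of chips without tying arrays to them, and batch was not fitted. No arrays held identical values. The fit was tested on simulated data, and arrays left out, a replicate block, other scalings, filters, probe set rules and variance models were tried.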

Additional observations from a re-analysis of the deposited data

Results flagged for a closer look

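The node minus dermal difference changed between steady state and DNFB for 61 of the 374 genes named, 34 upward and 27 downward, by the limma test of the difference between both differences at an adjusted p under 0.05 over all genes. The genes named include the 8 largest changes each way by this same test and others chosen after their values were seen, so their share is set by the choice and is not compared with the 261 of all genes tested. Taken with its sign, the difference was higher after DNFB, in log2 units, for Cxcl9 (4.45), Cytl1 (3.56), Cd302 (3.42), Atp1b1 (3.39), Spink2 (3.35), Dll4 (3.24), Lyz1 (3.23), Cd163 (3.16) and Timp2 (3.11). Changes of C1qc (2.81), Hpgd (2.70), Cd2 (2.64), C1qb (2.62), Cxcl10 (2.55), Ccl2 (2.52), Sema6d (2.32), Mgl2 (2.13) and Fcgr3 (2.04) came next. Next in size were Cd86 (2.03), Egr2 (2.00), Tnfsf9 (1.93), Mki67 (1.92), C3ar1 (1.87), Pltp (1.77), Melk (1.71), Ebi3 (1.48) and H2-DMa (1.43). The smallest rises of the difference were Apoe (1.38), Top2a (1.36), Esam (1.33), Icam1 (1.33), Ier3 (1.25), Csf1r (1.16) and Ahr (0.93). It was lower after DNFB for I730030J21Rik (-5.85), Tnfsf4 (-4.44), Plac8 (-4.28), Ifitm6 (-4.16), Cd72 (-4.02), Gm9733 (-3.87), Ifit3 (-3.59), Il21r (-3.55) and Clec4n (-2.91). Changes of smaller size were Kit (-2.82), Pgf (-2.80), Ccr1 (-2.75), Klrd1 (-2.64), Fcgr1 (-2.23), Cd3d (-2.22), Isg20 (-2.22), Oas2 (-2.17) and Spint1 (-1.90). The last of these were Cdh1 (-1.87), Map3k14 (-1.86), Ifit2 (-1.69), Vegfa (-1.68), Gla (-1.17), Cd5 (-1.12), Psmb9 (-1.11), Gzmb (-1.01) and Cxcr4 (-0.91). Groups of 3 arrays were not tested for single arrays far from the others, and the dermal array that stood apart in mast cell genes is described above.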

How the results depend on the processing

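The call count after DNFB rose to 5705 (3066 rises) with array weights, against 3486 (1683 rises), and was 2133 (950 rises, 1183 falls) where a 2-fold change was asked as well. At steady state that demand left 2331 (989 rises, 1342 falls). The test between states called 771 genes (404 higher, 367 lower) with array weights and 419 (258 higher, 161 lower) with only the groups compared in the fit, against 261. With 1 array left out at a time, calls after DNFB lay between 2824 and 3247 (rises 1381 to 1526, falls 1443 to 1748), calls at steady state between 3400 and 3620 (rises 1651 to 1828, falls 1749 to 1874), and calls between states between 170 and 249 (higher 104 to 157, lower 62 to 102). The last count was 170 without dermal DC replicate 1 after DNFB, and the lower differences were 62 without node DC replicate 2 after DNFB. Quantile normalization, centred array medians, a filter on low values, other probe set rules and an intensity trend kept all 3 call counts within 1.5 times. Of the 3486 calls, 2977 held with keratinocyte and fibroblast levels as covariates, 3464 with array weights and 2771 without dermal replicate 3, and none was called in the opposite direction under any alternative tried. Replicate numbers were not shown to pair the samples, but 3 arrays per group cannot exclude it. After DNFB, same-numbered node and dermal arrays deviated together at r = -0.16, 0.35 and 0.21, and the others at -0.45 to 0.29. Both groups after DNFB carry the source numbers 3, 4 and 5 in their labels. With the replicate block the counts were 3474 (1667 rises, 1807 falls) after DNFB, 4027 at steady state and 253 between states. At steady state replicate 3 has source number 3 in node DC and 4 in dermal DC, so that block does not match sources there. With the source number as a random block (correlation 0.0033) the counts were 3492, 4048 and 267. The genes that turned sign had not passed in any direction. With quantile normalization, Cd79b was at 0.057, Cox6c at 0.0047, Ifi35 at 0.072, Mcm6 at 0.033, Mmp14 at 0.014, S100a4 at 0.032, Tk1 at 0.012 and Tlr9 at 0.048. With probe sets averaged, Hspa8 was at -0.011. With array weights, Cd79b was at 0.048, Cldn1 at -0.0076, Dusp1 at 0.070 and Nfkbia at 0.084. With keratinocyte and fibroblast levels as covariates, Aldoa was at 0.021, C1ra at 0.021, Mmp14 at 0.13, Nfkbia at 0.023, Prf1 at 0.0041 and Tk1 at 0.40. With 1 array left out at a time, values ran for the change between states of Apol7c from -0.35 to 0.54, Cd79b from -0.33 to 0.28, Dusp1 from -0.16 to 0.047, Ifi35 from -0.17 to 0.094, Itgav from -0.020 to 0.39, Mcm6 from -0.21 to 0.14, Mcpt4 from -2.28 to 0.14, Mmp14 from -0.19 to 0.065, Nfkbia from -0.16 to 0.056, Prf1 from -0.26 to 0.083, S100a4 from -0.021 to 0.0041, Tk1 from -0.16 to 0.037 and Tlr9 from -0.059 to 0.053. The cause was not tested for these. Calls lost and gained are listed from here on only for genes named in the text. Calls after DNFB lost with keratinocyte and fibroblast levels as covariates were those of Adam17, Adam19, Cd2, Cd3g, Ebi3, Gadd45b, H2-Eb1, Hspa1a, Hsph1, Ido1, Lat, Perp and Ube2c (adjusted p = 0.055 to 0.23). Array weights called Actb, Adam8, Alcam, B2m, Bak1, Casp8, Ccr9, Cd207, Cd302, Clec12a, Id2, Il1rn, Il21r, Nfkbib, Rxra, S100a11, Sfn, Spi1, Stra6, Tmsb4x and Zbtb46, which had not passed after DNFB (adjusted p = 0.00078 to 0.044). The fit of only the groups compared called Bak1, Casp8, Cd207, Cd3e, Cxcl10, Cxcl16, Id2, Il1rn, Pdcd1lg2, Rxra and Sfn (adjusted p = 0.0022 to 0.041). It lost Hspa1a, Ido1, Pacsin1 and S1pr2 (adjusted p = 0.067 to 0.13). Quantile normalization lost H2-Eb1 (adjusted p = 0.059) and called B2m, Bak1, Cd207, Cd47, Id2 and Tmsb4x. Centred array medians lost Adam19, Bank1, Cd2 and Hsph1 (adjusted p = 0.0504 to 0.097) and called Sfn. The replicate block lost Bank1 (adjusted p = 0.056) and called Bak1 and Id2. The intensity trend lost Adam19 (adjusted p = 0.055) and called B2m and Tmsb4x. Lyz1 had an adjusted p of 0.069 between states with only the groups compared. Arrays count no molecules, and levels under 4.02 limit the size of a fold.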
